A study of Mus musculus with 6 samples.

Results

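The genes described here are the 10 listed sensors and effectors of double-stranded RNA together with the RNA editor Adar: Ifih1, Ddx58, Dhx58, Eif2ak2, Oas1a, Oas2, Oas3, Oasl1, Oasl2 and Adar. They form a list of named genes with no threshold on their values, and all 10 were found among 55177 annotated genes and passed the filter on low counts. RNA was sequenced from CD4+ T cells of C57BL/6J mice, with 3 libraries labelled wild type (WT) and 3 labelled Wtap knockout (Wtap KO). Wtap is a regulatory subunit of the m6A writer, the nuclear enzyme complex that places methyl groups on adenosines of mRNA. The protocol is the same text for both groups. It gives 4-hydroxytamoxifen, the agent that switches on an inducible Cre, at 1 µM for 24 h. Antibodies to CD3 (1 µg/mL) and CD28 (2.5 µg/mL) then activated the cells for 40 to 48 h under Th1 conditions, that is 10 ng/mL IL-12 and 10 µg/mL of an antibody to IL-4. Cells grown on in IL-2 (200 IU/mL) were taken on day 4. Whether WT cells carried a Cre, which promoter drove it, which part of Wtap was removed, the age of the mice and whether each library was a separate mouse are points not given in the sources used here. P-values therefore measure the spread between these libraries, which may be in part technical.

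Double-stranded RNA in the cytosol is a mark of viral infection, but RNA of the cell itself can also fold or pair into it. RIG-I (Ddx58) and MDA5 (Ifih1) are helicases that bind it and pass the signal through the mitochondrial adaptor MAVS to the factors that switch on interferon genes, and LGP2 (Dhx58) is a related helicase that lacks the signalling domain. PKR (Eif2ak2) phosphorylates the translation factor eIF2alpha, and the 2'-5' oligoadenylate synthetases (OAS) make a small RNA-like messenger that sets off RNA decay. ADAR1, the product of Adar, converts adenosine to inosine within double strands, which keeps the cell's own RNA from being sensed. Most of these genes are themselves induced by interferon through elements bound by the ISGF3 complex, of which Stat2 and Irf9 are subunits.

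Libraries held between 32363139 and 44039467 estimated counts. The 8 markers of CD4+ T cells summed to 2540 to 2574 TPM (a level scaled to transcript length and to the library's total) in WT and 2374 to 2491 TPM in Wtap KO, and 2 of the 8, Cd3g and Cd4, were lower in Wtap KO. Total Wtap RNA was at 114, 106 and 94.3 CPM (counts scaled to the library's total, not to length) in WT and 114, 120 and 119 CPM in the knockout libraries (adjusted p = 0.371 in edgeR), which checks no deletion of an unnamed part. Library 3 of the Wtap KO group stood apart: Xist was at 3.81 CPM there and at 1980 to 4448 CPM in the other 5 libraries, and the Y-linked Kdm5d at 63.3 against 2.43 to 3.53 CPM. By Xist and Kdm5d, Wtap KO 3 has a male pattern and the other 5 libraries a female one, so sex is not balanced between the groups. Other genes were tested in the same fit: of 17610 genes, 1012 were called higher and 614 lower.

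Of the 10 genes, 3 rose in Wtap KO cells and none fell. Oas2 rose most, Oas1a rose less, both synthetases from a very low level in WT, and Adar rose by 1.5-fold from a high one. The helicases RIG-I, MDA5 and LGP2 did not pass the test, with fold changes between 1.06 and 1.15, and PKR, Oas3, Oasl1 and Oasl2, with fold changes between 1.49 and 2.43, did not pass either. Among all genes tested, 9.23% were called, 5.75% higher and 3.49% lower (edgeR's quasi-likelihood test, Benjamini-Hochberg adjustment over all genes, threshold 0.05). The fitted log2 fold change was above 0 in 10 of 10, as in 49.9% of all genes, and its median was 0.59 against -0.00058 over all genes. Libraries of the groups did not overlap in 5 of the 10, with all Wtap KO libraries on the higher side, which held for 17.2% of all genes (32.7% did not overlap in either direction). At 2-fold or more, 3 of the 10 were higher (Oas2, Oas1a and Oasl1), against 4.86% of all genes. At an unadjusted p under 0.05 there were 7, against 26.3% of all genes. In bulk RNA, a change in the share of cells that express a gene and a change in RNA per cell cannot be told apart.

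**Figure D1:**
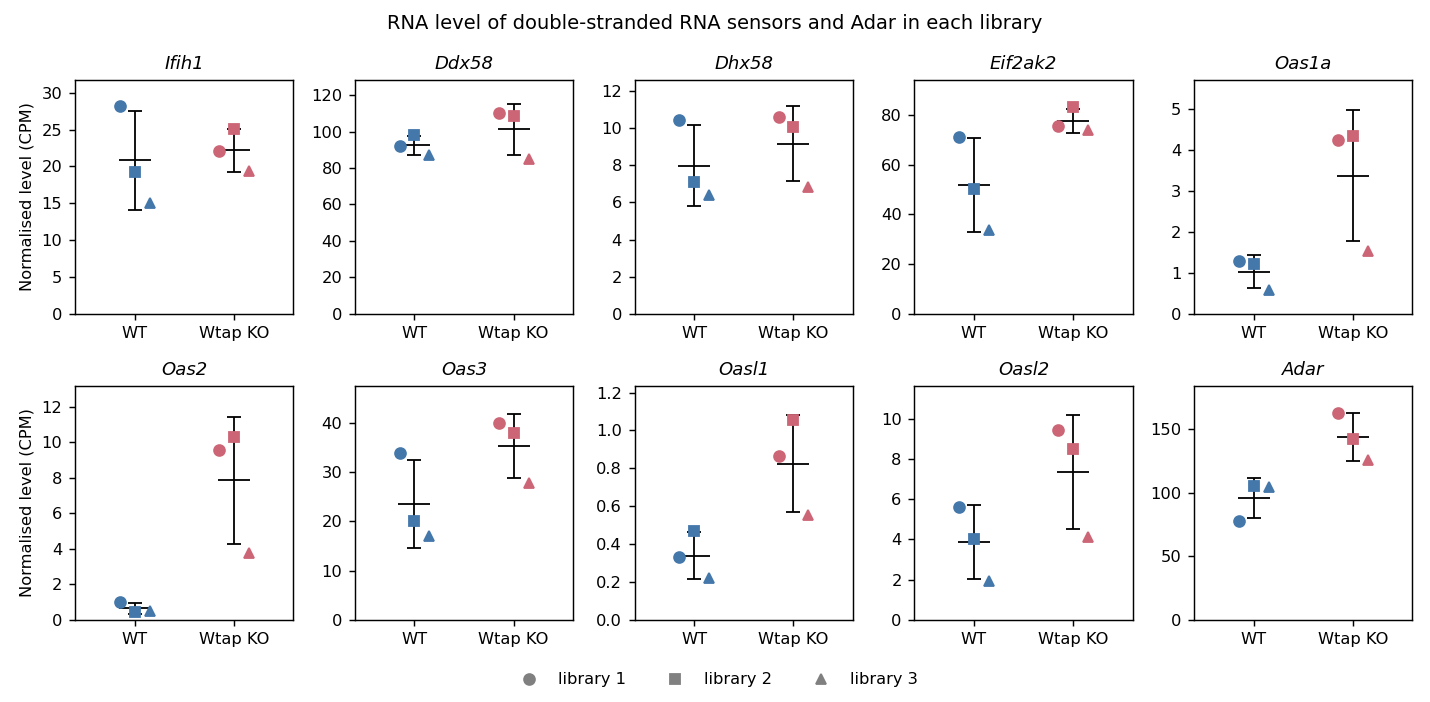
RNA level of each of the 10 genes in CPM (y axis, from 0, a separate scale per gene) in the 3 WT and 3 Wtap KO libraries; symbols give the library number, the wide bar the mean and the whiskers 1 SD. Groups do not overlap for Eif2ak2, Oas1a, Oas2, Oasl1 and Adar, and library 3 of the Wtap KO group is the lowest of its group for all 10 genes.

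By TPM summed over all transcripts of a gene, the helicase RIG-I was the most abundant of the 10 and the synthetases other than Oas3 the least. In WT, Ddx58 was at 29.96 ± 2.51 TPM (SD, n = 3), Adar at 19.1 ± 2.48 TPM and Eif2ak2 at 14.7 ± 5.85 TPM. A middle tier held Dhx58 at 6.17 ± 2.24 TPM, Ifih1 at 6.14 ± 2.40 TPM and Oas3 at 5.68 ± 2.33 TPM, whose libraries overlapped. Below them came Oasl2 at 2.18 ± 1.02 TPM, then Oas1a at 0.576 ± 0.234 TPM, Oas2 at 0.238 ± 0.0934 TPM and Oasl1 at 0.213 ± 0.117 TPM. Neighbours whose WT libraries did not overlap were Ddx58 and Adar, Eif2ak2 and Dhx58, Oas3 and Oasl2, and Oasl2 and Oas1a. In Wtap KO the order kept Ddx58 (36.0 ± 3.94 TPM), Adar (31.2 ± 4.51 TPM) and Eif2ak2 (22.8 ± 1.16 TPM) at the top, but Ddx58 and Adar now overlapped. Oas2 stood at 2.31 ± 0.894 TPM in Wtap KO, next to Oas1a at 1.91 ± 0.883 TPM with overlapping libraries, and Oasl1 remained last at 0.677 ± 0.356 TPM. The first place of Ddx58 holds for summed TPM only, which includes its transcripts annotated without a protein. The main coding transcripts overlapped in both groups: Ddx58-201 (17.5 ± 1.63 TPM in WT, 20.6 ± 3.01 in Wtap KO) and Adar-203 (14.7 ± 2.68 and 22.7 ± 3.30). In CPM the means of Adar (95.7 in WT, 144 in Wtap KO) were above those of Ddx58 (92.4 and 101).

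The OAS genes code for enzymes that polymerise ATP into 2'-5' oligoadenylates once they bind double-stranded RNA; Oas1a, Oas2 and Oas3 differ in how many copies of the synthetase unit they carry. Oas2 (ENSMUSG00000032690, GRCm38 chromosome 5, 120730333 to 120749853, minus strand) was nearly silent in WT, at 1.02, 0.438 and 0.491 CPM, from 14.0 to 37.0 estimated counts. In Wtap KO it was at 9.54, 10.3 and 3.76 CPM, from 170 to 418 estimated counts. The lowest Wtap KO library was thus above the highest WT library, and Wtap KO 3 was well below the other Wtap KO libraries. The fitted log2 fold change was 3.58 ± 0.47 (SE), a 12.0-fold rise with a 95% interval of 5.74 to 24.9 (edgeR adjusted p = 0.00422). Oas2 passed in 6 of 6 fits that left out a library (adjusted p between 0.00731 and 0.0254) and in all 18 alternative fits, those 6 included. No 31-base word of its transcripts, the default word length by which kallisto assigns reads, occurred in another gene, so its counts do not depend on a near copy. On the scale of log2(TPM + 1), which compresses low genes, the limma difference was 1.38 (adjusted p = 0.0228).

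Oas1a (ENSMUSG00000052776, chromosome 5, 120896256 to 120907521, minus strand) was at 1.30, 1.22 and 0.573 CPM in WT and at 4.25, 4.35 and 1.53 CPM in Wtap KO. Groups did not overlap, but the lowest Wtap KO library, number 3, was close to the highest WT library. Its log2 fold change was 1.71 ± 0.45 (SE), a 3.27-fold rise with a 95% interval of 1.61 to 6.65 (edgeR adjusted p = 0.0489). The call was at the edge of the threshold. It held in 7 of the 16 alternative fits that tested the gene (adjusted p between 0.00253 and 0.179). Of the fits without a library it held in 1 of 6, that without Wtap KO 3 (adjusted p = 0.0300), and was lost in the other 5, up to 0.179 without Wtap KO 1. Of the 31-base words of Oas1a, 68.7% are also in its neighbour Oas1g, so reads of the pair can be assigned to either. Oas1g was at 0.0273 to 0.138 CPM in WT and 0.243 to 0.664 CPM in Wtap KO, below the filter of the fit with all 6 libraries. It was tested in 4 of the 6 fits without a library and passed in that without WT 1 (adjusted p = 0.0489, against 0.0706 to 0.129 in the other 3). With the counts of the pair summed, an alternative added after seeing the data, the log2 fold change was 1.76 ± 0.45 (SE, edgeR adjusted p = 0.0445).

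Oas3 (chromosome 5, 120753098 to 120777661, minus strand), the longest of the synthetases, was at 33.8, 20.1 and 16.9 CPM in WT and 40.0, 38.0 and 27.8 CPM in Wtap KO. Groups overlapped because WT 1 was higher than Wtap KO 3. The log2 fold change of 0.58 ± 0.25 (SE) did not pass (edgeR adjusted p = 0.190), and of 18 alternative fits (adjusted p up to 0.445) it passed only in that without WT 1 (0.93, adjusted p = 0.00831). Oasl1 (chromosome 5, 114923240 to 114937915, plus strand), a synthetase-like protein without the enzyme activity, had the fewest counts: 0.331, 0.469 and 0.218 CPM in WT and 0.865, 1.06 and 0.553 CPM in Wtap KO. These libraries did not overlap, yet the log2 fold change of 1.28 ± 0.39 (SE) did not pass (edgeR adjusted p = 0.0732). Oasl2 (chromosome 5, 114896936 to 114912234, plus strand), a synthetase-like protein that keeps the activity in mice, was at 5.61, 4.00 and 1.94 CPM in WT and 9.41, 8.48 and 4.14 CPM in Wtap KO. Here WT 1 was above Wtap KO 3, and the log2 fold change of 0.93 ± 0.41 (SE) had an edgeR adjusted p of 0.188. Oasl1 and Oasl2 are neighbours on chromosome 5, as are Oas1a, Oas2 and Oas3. The 95% intervals of the log2 fold change reached from 0.00 to 1.16 for Oas3, from 0.40 to 2.16 for Oasl1 and from 0.01 to 1.86 for Oasl2.

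Elements bound by ISGF3 and other interferon regulatory factors are the known route by which the synthetase genes are induced. Of their promoters, those of Oas1a and Oas3 are printed. Both have the longer motif described below, which the promoters of Oasl1 and Oasl2, searched but not printed, lack. Windows of 300 bases, 250 before the annotated RefSeq transcript start and 50 from it on (GRCm38.p6), were held for 8 of the 10 genes. The promoter set used here had no window for Dhx58 or Oas2. Capitals mark matches, on either strand, to the core of the interferon-stimulated response element (ISRE core, 2 copies of GAAA with 2 free bases between them) and to the shorter IRF site (AANNGAAA), which lies within every ISRE core match.
Oas1a, chr5:120907476-120907775, minus strand: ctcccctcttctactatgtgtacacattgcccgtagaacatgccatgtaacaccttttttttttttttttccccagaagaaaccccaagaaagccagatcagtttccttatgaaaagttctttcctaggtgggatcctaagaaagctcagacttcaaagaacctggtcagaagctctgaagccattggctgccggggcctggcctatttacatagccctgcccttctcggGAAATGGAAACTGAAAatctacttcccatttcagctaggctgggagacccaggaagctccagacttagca
Oas3, chr5:120777610-120777909, minus strand: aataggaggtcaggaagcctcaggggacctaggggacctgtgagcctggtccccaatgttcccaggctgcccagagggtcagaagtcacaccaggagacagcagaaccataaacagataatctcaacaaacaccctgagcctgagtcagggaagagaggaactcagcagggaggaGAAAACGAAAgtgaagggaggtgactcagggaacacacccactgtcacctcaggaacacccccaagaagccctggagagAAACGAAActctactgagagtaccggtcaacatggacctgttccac
Oas1a, which rose, has 2 overlapping ISRE core matches from 20 to 5 bases before its start. Oas3, which did not pass the test, has 1 ISRE core match from 75 to 66 bases before its start and a separate IRF site from 4 to 11 bases after it. The ISRE core was found in 5 of the 10 windows, those of 5 of the 8 genes (Ifih1, Ddx58, Eif2ak2, Oas1a and Oas3). It is in 3.44% of 32851 RefSeq promoter windows and in 3.28% of the windows of tested genes. Of the 5 genes with an ISRE core, Oas1a alone was called higher. Oas2, also called, had no window to search, and Adar, also called, had an IRF site but no match to this strict core. Whether the motif goes with the rise was not tested. The IRF site was found in 7 of the 10 windows, those of 7 of the 8 genes, and Oasl2 had neither motif. It is in 23.9% of all windows and in 19.5% of those of tested genes. Oasl1 had 3 IRF sites between 177 and 126 bases before its start and no ISRE core. These matches describe letters only and are no evidence of binding in these cells.

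**Figure D2:**
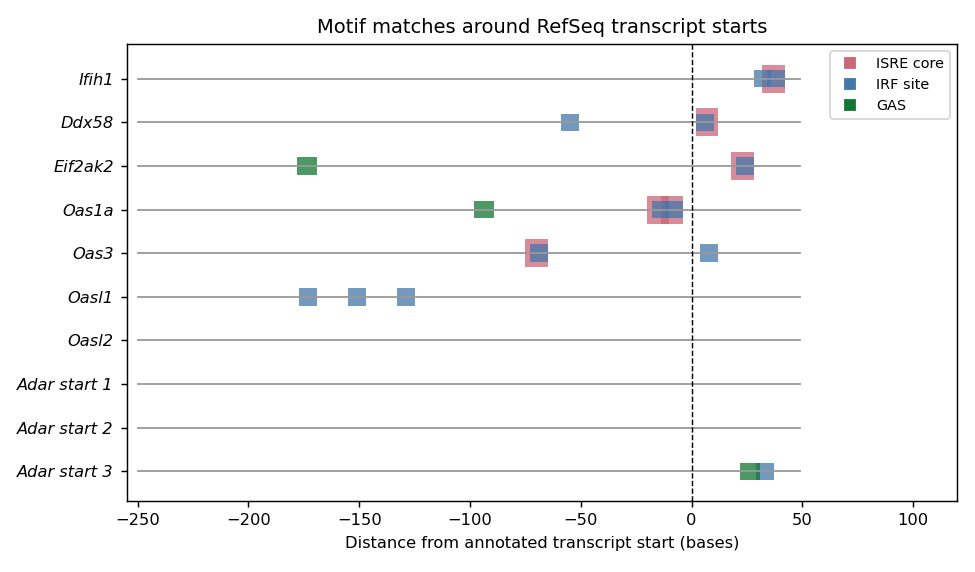
Matches to the ISRE core, the IRF site and the gamma-activated site (GAS) around the RefSeq starts of 8 genes (x axis, distance from the transcript start in bases; grey lines are the 300-base windows, and Adar has 3 annotated starts). The 5 genes with an ISRE core carry it between 75 bases before and 41 bases after the start, and of the 3 Adar starts 1 has any match.

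Adar (ENSMUSG00000027951, GRCm38 chromosome 3, 89715022 to 89753446, plus strand) was one of the more abundant of the 10 genes, at 77.3, 105 and 105 CPM in WT and 163, 143 and 126 CPM in Wtap KO. All 3 Wtap KO libraries were above all 3 WT libraries, with WT 1 the lowest of its group and Wtap KO 1 the highest of its own. The log2 fold change was 0.59 ± 0.15 (SE), a 1.5-fold rise with a 95% interval of 1.19 to 1.90 (edgeR adjusted p = 0.0438). This call too was near the threshold: it held without WT 1 (adjusted p = 0.0365) and without WT 3 (0.0404), and was lost without WT 2, Wtap KO 1, Wtap KO 2 or Wtap KO 3 (up to 0.166). It was also lost with an offset on gene length (log2 fold change 0.54, adjusted p = 0.0666), although the fold stayed similar. In all, 11 of 18 alternative fits called it (adjusted p between 0.00628 and 0.166). Chrnb2, a subunit of the nicotinic acetylcholine receptor, lies on the opposite strand across the end of Adar and holds 15.4% of Adar's 31-base words. It was at 2.71, 4.91 and 4.66 CPM in WT and 15.1, 12.2 and 11.8 CPM in Wtap KO, a log2 fold change of 1.67 ± 0.24 (SE, edgeR adjusted p = 0.00562). The strand setting of the counting is not given in the sources used here, so reads from the stretch they share cannot be told apart. With their counts summed, an alternative added after seeing the data, the log2 fold change was 0.65 ± 0.15 (SE, edgeR adjusted p = 0.0333).

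Adar makes 2 main proteins from separate promoters: the long p150 form, known as interferon-inducible and cytoplasmic, and the short, constitutive p110 form, which is mainly nuclear. In GENCODE M21 the transcript Adar-203 starts at 89730748, has its start codon at 89730811 in the first exon and codes for 1178 residues, the p150 type. Adar-202 starts at 89715022, has its first start codon at 89735558 in a later exon and codes for 930 residues, the p110 type. The RefSeq windows at or near these starts are shown because they separate the forms; capitals mark the IRF site.
Adar start 1 (upstream), chr3:89714772-89715071, plus strand: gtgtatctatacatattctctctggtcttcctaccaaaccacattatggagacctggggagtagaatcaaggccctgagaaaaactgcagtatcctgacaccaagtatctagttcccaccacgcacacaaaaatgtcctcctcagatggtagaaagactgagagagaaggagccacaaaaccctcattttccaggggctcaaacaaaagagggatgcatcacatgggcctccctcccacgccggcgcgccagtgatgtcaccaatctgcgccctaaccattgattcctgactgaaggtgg
Adar start 3 (p150 exon), chr3:89730468-89730767, plus strand: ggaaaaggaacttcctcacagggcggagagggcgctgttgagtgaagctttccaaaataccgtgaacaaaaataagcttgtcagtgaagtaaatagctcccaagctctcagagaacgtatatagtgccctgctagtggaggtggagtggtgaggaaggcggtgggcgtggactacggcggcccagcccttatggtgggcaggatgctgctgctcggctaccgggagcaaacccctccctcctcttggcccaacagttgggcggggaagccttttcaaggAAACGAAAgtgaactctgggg
Start 1 has none of the motifs. Start 3 is a RefSeq start that lies shortly upstream of the GENCODE start of Adar-203. It has an IRF site from 29 to 36 bases after this RefSeq start and, overlapping it, a match to the gamma-activated site (TTCNNNGAA), from 22 to 30 bases. The latter motif is in 8.30% of all windows and was also found in Eif2ak2 and Oas1a.

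Nearly all coding Adar counts were assigned to the p150 type in both groups. Adar-203 was at 11.8, 17.0 and 15.5 TPM in WT and 26.5, 21.5 and 20.2 TPM in Wtap KO, without overlap. Its log2 change in abundance was 0.58 ± 0.17 (SE), which did not pass when adjusted over all transcripts (edgeR adjusted p = 0.200). Adar-202, the p110 type, was at 0.727, 0.263 and 0.870 TPM in WT and 0.685, 1.23 and 0.716 TPM in Wtap KO, with overlapping groups. Transcripts that start at the p150 codon held 91.4%, 97.0% and 91.1% of the coding Adar counts in WT and 93.9%, 91.5% and 92.3% in Wtap KO. The means were 93.2% ± 3.29 and 92.5% ± 1.23 (SD, n = 3 each), a difference of -0.634 percentage points with an exact two-sided permutation p of 1.0, where 3 against 3 libraries allow no p under 0.1. This split rests on few sequences, since 90 of the 5841 31-base words of Adar-203 are missing from Adar-202 and 128 of 5879 the other way, and the error of the assignment is not in the deposited tables. A further pair of transcripts had higher values in all Wtap KO libraries. Adar-208, a short transcript with a retained intron, was at 2.58, 1.81 and 1.87 TPM in WT and 5.83, 4.57 and 4.08 TPM in Wtap KO (log2 change 1.17 ± 0.27, edgeR adjusted p = 0.127). Adar-205, annotated with a protein of 634 residues, was at 0.982, 0.707 and 1.65 TPM in WT and 2.71, 2.01 and 2.56 TPM in Wtap KO (log2 change 1.06 ± 0.35, edgeR adjusted p = 0.236).

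**Figure D3:**
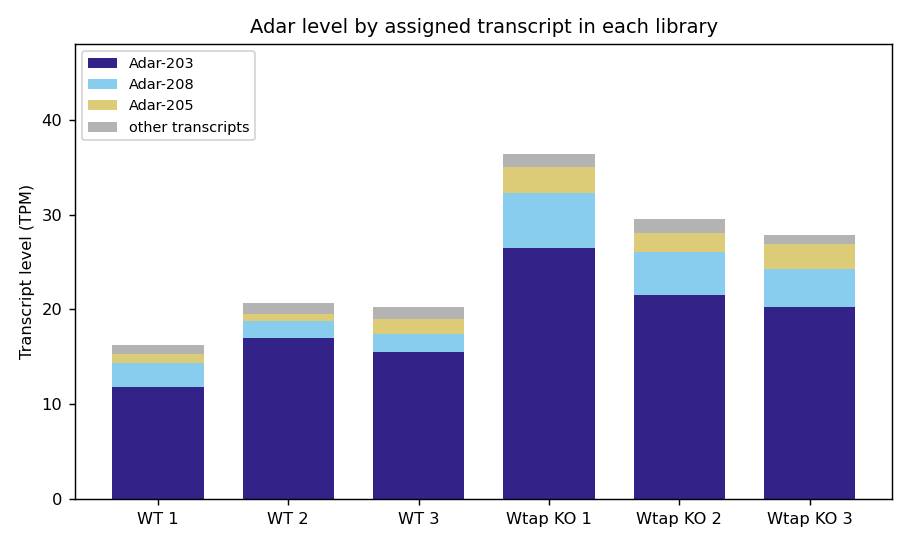
Level of Adar in TPM (y axis, from 0) in each library, stacked by the transcript to which kallisto assigned the reads; the other transcripts, Adar-202 among them, are summed in grey. The stacks total 16.2 to 20.7 TPM in WT and 27.8 to 36.4 TPM in Wtap KO, and Adar-203, the p150 type, is the largest part in all 6 libraries.

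None of the 3 helicases passed the test (0 of 3 also in DESeq2, and 0 at an unadjusted p under 0.05 in edgeR). Ddx58 (RIG-I, ENSMUSG00000040296, chromosome 4, 40203773 to 40239828, minus strand), which recognises the ends of short double strands, was at 92.0, 97.8 and 87.3 CPM in WT and 110, 108 and 85.1 CPM in Wtap KO. Its lowest library overall was Wtap KO 3, so groups overlapped, and the log2 fold change was 0.13 ± 0.12 (SE, edgeR adjusted p = 0.547). Ifih1 (MDA5, ENSMUSG00000026896, chromosome 2, 62595798 to 62646255, minus strand), which binds long double strands and is the sensor that ADAR1 is known to hold in check, was at 28.2, 19.2 and 15.1 CPM in WT and 22.02, 25.1 and 19.3 CPM in Wtap KO. WT 1 was the highest of all 6, and the log2 fold change of 0.09 ± 0.22 (SE, edgeR adjusted p = 0.845) turned to -0.10 without WT 3 and to -0.01 without Wtap KO 2. Dhx58 (LGP2, ENSMUSG00000017830, chromosome 11, 100694884 to 100704271, minus strand) was at 10.5, 7.10 and 6.41 CPM in WT and 10.6, 10.1 and 6.86 CPM in Wtap KO, with a log2 fold change of 0.20 ± 0.24 (SE, edgeR adjusted p = 0.656). A missed threshold does not show equal levels: the 95% intervals of the fold were 0.903 to 1.33 for Ddx58, 0.752 to 1.51 for Ifih1 and 0.790 to 1.67 for Dhx58. These intervals leave out a 2-fold rise of any of the 3 helicase RNAs in these libraries. The lower bound for Oas2 (5.74) is above the upper bound for each helicase, but the difference between genes was not tested.

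PKR, which halts translation when bound to double-stranded RNA, did not pass the test. Eif2ak2 (ENSMUSG00000024079, chromosome 17, 78852564 to 78882573, minus strand) was at 71.3, 50.4 and 33.8 CPM in WT and 75.6, 83.2 and 74.2 CPM in Wtap KO. Groups did not overlap, but WT 1 was close to the Wtap KO libraries and the WT libraries were spread widely (51.8 ± 18.8 CPM against 77.7 ± 4.87 CPM, SD, n = 3). The log2 fold change of 0.58 ± 0.23 (SE), nearly that of Adar, did not pass (edgeR adjusted p = 0.150). Without WT 1 it was 0.88 (adjusted p = 0.00940), and it passed in none of the other 17 alternative fits (adjusted p up to 0.355).

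**Figure D4:**
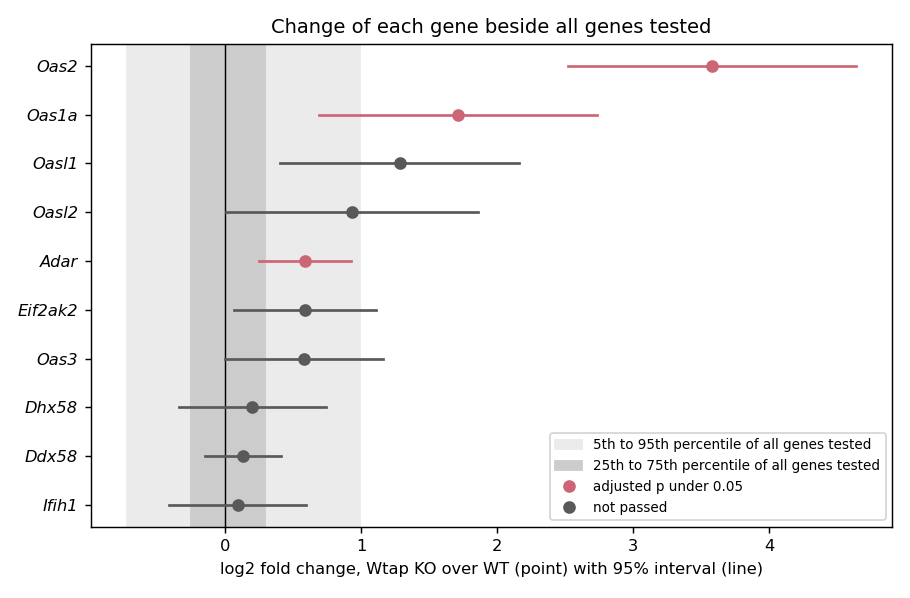
Fitted log2 fold change of each gene, Wtap KO over WT (x axis, point), with its 95% interval (line); red marks an adjusted p under 0.05 in edgeR. Shading gives the 5th to 95th percentile (-0.72 to 0.99) and the 25th to 75th percentile (-0.25 to 0.29) of all 17610 genes tested; Oas2, Oas1a and Oasl1 lie above the 95th percentile.

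Within a group, the 10 genes tended to be ordered alike across libraries. Wtap KO 3 was the lowest of its group in 10 of 10 genes, a place it held in 39.4% of all genes tested. WT 1 was the highest WT library in 7 of 10 (38.6% of all genes), the exceptions being Ddx58, Oasl1 and Adar, and WT 3 the lowest in 8 of 10 (36.4%). Without Wtap KO 3, 2 of the 10 genes were called higher, Oas2 and Oas1a, and the median log2 fold change was 0.70. The share of all genes called higher fell to 2.61% in that fit. Without WT 1, 4 were called: Oas2, Adar, Eif2ak2 and Oas3, with a background of 7.47%. Whether the traits that set Wtap KO 3 apart, its male pattern of Xist and Kdm5d among them, bear on these levels was not tested.

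**Figure D5:**
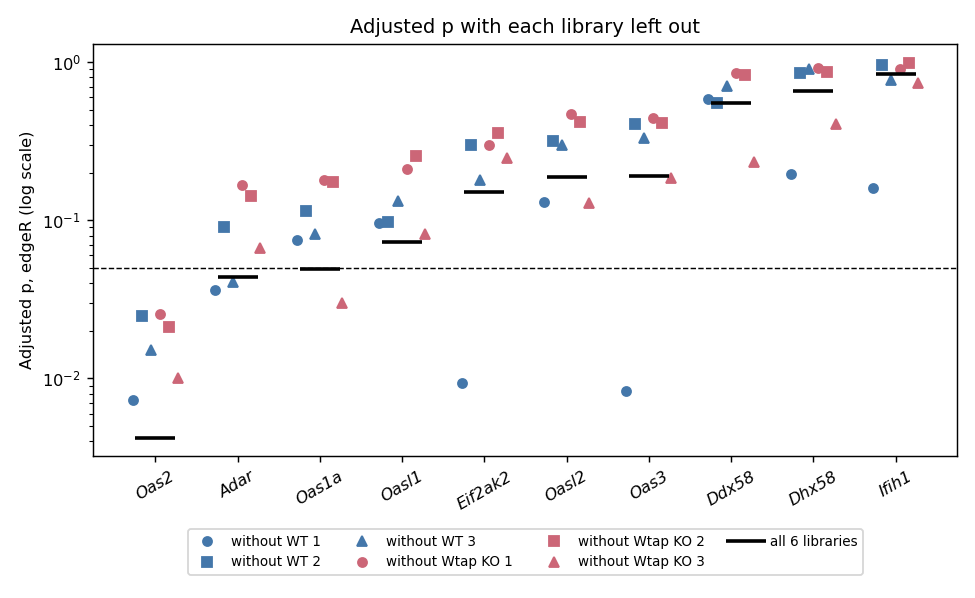
Adjusted p from edgeR for each gene (y axis, log scale) with all 6 libraries (black bar) and with each library left out (symbols); the dashed line is the threshold of 0.05. Oas2 alone is under the line in all fits, Adar and Oas1a cross it, and Eif2ak2 and Oas3 are under it only without WT 1.

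By transcript, 34 transcripts of the 10 genes were tested and edgeR called none, where 0.72% of all 46935 transcripts were called, 0.501% higher. Of the 34, 9 had an unadjusted p under 0.05, and the smallest adjusted p, 0.0553, was that of Oas2-201, the main coding transcript of Oas2. That transcript was at 0.214, 0.110 and 0.0613 TPM in WT and 2.33, 2.04 and 0.964 TPM in Wtap KO, a log2 change of 3.74 ± 0.58 (SE). DESeq2, the alternative tool, tested 48 transcripts of these genes, some below the filter of the edgeR fit, and called 3, all higher: Oas2-201 (adjusted p = 1.35e-08), Oas2-202 (0.0305), listed at 0 in every WT library and at 0.257, 0.515 and 0 TPM in Wtap KO, and Adar-208 (0.0215), with 5.81% of all transcripts that had an adjusted p called. The share of a transcript within its gene was tested by limma on log-ratios, and 0 of 34 passed (1 at an unadjusted p under 0.05, 0.316% of all transcripts called). In most genes 1 coding transcript dominated in both groups. Eif2ak2-201 held 97.2% ± 0.403 of its gene's counts in WT and 96.9% ± 0.491 in Wtap KO, Oas3-201 94.1% ± 1.19 and 93.3% ± 1.76, Ddx58-201 73.4% ± 1.44 and 75.9% ± 1.68, and Dhx58-201 71.8% ± 3.54 and 74.9% ± 0.730. Ifih1 was split between Ifih1-202 (57.0% ± 0.662 and 59.9% ± 1.33), which codes for 976 residues, and Ifih1-201 (27.3% ± 1.44 and 22.8% ± 3.00), which codes for 1025. The most abundant transcript of Oasl2 per length, Oasl2-205, is annotated as a target of nonsense-mediated decay, and held 53.1% ± 9.02 of the gene's counts in WT and 54.0% ± 7.73 in Wtap KO (SD, n = 3 throughout). The other transcripts with at least 1 TPM in a group were Ddx58-203, Ddx58-205, Ddx58-206, Ddx58-207, Ddx58-208, Ddx58-210, Dhx58-202, Dhx58-204, Dhx58-206, Eif2ak2-202, Eif2ak2-203, Eif2ak2-204, Ifih1-203 and Oas1a-201, and none of them passed a test that covered it.

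Downstream of RIG-I and MDA5, part of the signalling genes passed the test, where 5.75% of all genes were called higher and 3.49% lower. Of 19 genes of MAVS signalling tested, 6 were higher and 0 lower, with a median log2 fold change of 0.08. The largest were Nlrx1, a mitochondrial protein known to restrain MAVS (1.49 ± 0.25, edgeR adjusted p = 0.0112), Tbkbp1 (0.96 ± 0.23, 0.0352), an adaptor of the kinase TBK1, Irf7 (0.79 ± 0.19, 0.0341), which drives type I interferon genes, and the ligase Traf6 (0.64 ± 0.11, 0.0102). Mavs itself was at 24.1, 24.98 and 31.7 CPM in WT and 37.4, 35.2 and 36.4 CPM in Wtap KO, without overlap, but did not pass (log2 fold change 0.43 ± 0.13, adjusted p = 0.0744). Irf3, the other interferon-inducing factor, had overlapping groups (0.08 ± 0.20, adjusted p = 0.859). Among 20 regulators of RIG-I and MDA5, 1 was higher and 1 lower (median -0.15), close to the shares of all genes called. Trim25, the ubiquitin ligase known to activate RIG-I, rose from 83.2 ± 2.27 CPM in WT to 126 ± 2.04 CPM (SD, n = 3), by 0.60 ± 0.09 on the log2 scale (edgeR adjusted p = 0.00690). Ppp1ca, a catalytic subunit of the phosphatase that dephosphorylates the helicases, fell by 0.46 ± 0.11 on the log2 scale (edgeR adjusted p = 0.0332). Leaving out 1 library cost the call of each of these 6 named genes at least once: Irf7 and Tbkbp1 passed in 1 of 6 such fits, Ppp1ca in 1, Nlrx1 in 3, Traf6 in 4 and Trim25 in 5. Without Wtap KO 2 none of the 6 passed, and the largest adjusted p over these fits ran from 0.0541 for Trim25 to 0.143 for Irf7.

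Downstream of the synthetases and PKR, little passed, where 5.75% of all genes were called higher and 3.49% lower. Of 5 other OAS genes and partners tested, 1 was higher: Pde12, a phosphodiesterase that degrades the 2'-5' messenger (log2 fold change 0.60 ± 0.11, edgeR adjusted p = 0.0128). Oas1b had no overlap between groups but did not pass (0.44 ± 0.15, adjusted p = 0.107). Of 16 kinases and regulators of eIF2alpha, 0 passed in edgeR (5 at an unadjusted p under 0.05, and DESeq2 called 1, lower), with 5 above 0 and a median of -0.11, including the sister kinases Eif2ak1 (-0.06), Eif2ak3 (0.24) and Eif2ak4 (-0.08). Prkra, a protein activator of PKR, was at -0.06 ± 0.21 (adjusted p = 0.904). The second editing enzyme, Adarb1, was at 3.65 to 8.15 CPM in WT and 5.22 to 5.83 CPM in Wtap KO (-0.02 ± 0.27, adjusted p = 0.980). Among 13 other genes that bind, process or edit double strands, Drosha, the nuclease of primary microRNAs, was the 1 that rose (0.59 ± 0.10, adjusted p = 0.0131). Pde12 lost its call without WT 2 or Wtap KO 2 (up to 0.0847) and Drosha lost it when WT 2, Wtap KO 1 or Wtap KO 2 was left out (adjusted p up to 0.0731).

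Sensors of other RNA and of DNA moved in part, where 5.75% of all genes were called higher and 3.49% lower. Of 14 further RNA sensors tested, 4 were higher and 0 lower (median 0.45): Ifit1, which binds RNA without the cap methyl marks of host mRNA (1.37 ± 0.31, edgeR adjusted p = 0.0306), Ticam1, the adaptor of Tlr3 (1.02 ± 0.17, 0.0113), Zbp1, the sensor of left-handed double strands that ADAR1 p150 is known to restrain (0.68 ± 0.12, 0.0118), and the helicase Ddx21 (0.66 ± 0.13, 0.0192). Zbp1 was abundant, at 102, 116 and 93.0 CPM in WT and 176, 172 and 151 CPM in Wtap KO. Tlr3 was at 0.0273 to 0.166 CPM in WT and 0.0443 to 0.236 CPM in Wtap KO and was not tested. Of 13 genes of cytosolic DNA sensing, 3 were higher and 1 lower. Trex1, the exonuclease that removes cytosolic DNA, rose from 5.76 ± 0.252 to 16.9 ± 1.62 CPM (1.55 ± 0.14, edgeR adjusted p = 0.00117) and passed in 6 of 6 fits without a library. Ifi211 (2.33 ± 0.44, 0.0169) and Tmem173 (STING, 0.47 ± 0.11, 0.0382) rose, Ifi203 fell by 0.62 ± 0.12 on the log2 scale (adjusted p = 0.0192), and the sensor Cgas did not pass (0.00 ± 0.19, adjusted p = 0.993). Without Wtap KO 1 or Wtap KO 2, Ifit1, Ticam1, Zbp1 and Ddx21 did not pass (up to 0.128 for Ifit1). Ifi211 (up to 0.0736), Tmem173 (up to 0.151) and Ifi203 (up to 0.0899) were each lost without WT 2 or Wtap KO 2, among others.

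The interferon pathway that induces most of the 10 genes was read in the same libraries, where 5.75% of all genes were called higher and 3.49% lower. Of 13 genes of the interferon receptors and ISGF3, 4 were higher and 0 lower, with a median log2 fold change of 0.29. Stat2, the ISGF3 subunit used by type I and type III interferon, was at 49.2, 51.9 and 48.9 CPM in WT and 118, 115 and 92.2 CPM in Wtap KO, a rise of 1.12 ± 0.12 on the log2 scale (edgeR adjusted p = 0.00197). Its partner Irf9 did not pass, with a log2 fold change of 0.29 ± 0.13 (adjusted p = 0.195). Usp18, the brake on the type I receptor, rose from 8.12 ± 0.890 to 23.0 ± 1.34 CPM (1.5 ± 0.14, adjusted p = 0.00120), and Isg15 was at 0.927 to 1.38 CPM in WT and 2.66 to 6.32 CPM in Wtap KO (2.10 ± 0.36, adjusted p = 0.0112). The receptor chain Ifnar1 rose (0.62 ± 0.09, adjusted p = 0.00734), and Ifnar2 did not pass (0.28 ± 0.10, adjusted p = 0.118). Stat2 and Usp18 passed in 6 of 6 fits without a library, Isg15 was lost without Wtap KO 1 or Wtap KO 2 (up to 0.0570), and Ifnar1 without Wtap KO 2 (0.0524). The ligands were barely detected. Of 21 interferon genes, 11 had no count in any library, Ifnb1 among them, and 3 counts, the limit that a count of 0 allows, corresponded to 0.0664 to 0.0938 CPM per library. Ifng, the interferon of Th1 cells, was at 0.354 to 0.938 CPM in WT and 0.524 to 0.996 CPM in Wtap KO (0.18 ± 0.42, adjusted p = 0.838).

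Markers of other cells were measured beside these changes, where 5.75% of all genes were called higher. Dendritic cell markers summed to 12.4 to 39.1 TPM in WT and 47.4 to 64.0 TPM in Wtap KO. Of 10 tested, 3 (Cd74, H2-Aa and Batf3) were higher. The list and its sum include genes of MHC class II presentation: H2-Aa, H2-Ab1, H2-Eb1, Cd74 and Ciita. Of these, H2-Ab1, H2-Eb1 and Ciita did not pass. Of the 10 tested, 9 had a log2 fold change above 0 (median 1.04), and 7 of the 12 on the list were above 1 CPM in at least 1 library. Cd74 was at 2.24 to 9.97 CPM in WT and 25.04 to 36.3 CPM in Wtap KO, H2-Aa at 0.746 to 2.53 and 4.82 to 7.23 CPM, and Batf3 at 0.791 to 2.54 and 5.33 to 8.04 CPM. Zbtb46 was at 0.654 to 0.844 CPM in WT and 1.02 to 1.47 CPM in Wtap KO, and Itgax at 0 to 0.438 and 0.344 to 0.682 CPM. Xcr1 (at most 0.983 CPM), Flt3 (at most 0.288 CPM) and Clec9a (at most 0.221 CPM) were low in all libraries, and Cd209a was at 0 in all 6. Plasmacytoid dendritic cell markers summed to 2.88 to 3.50 TPM in WT and 4.11 to 4.93 TPM in Wtap KO (1 of 4 tested higher, Tcf4), and Siglech was at most 0.110 CPM. B cell markers summed to 2.36 to 4.03 and 4.05 to 5.79 TPM (1 of 6 higher, Blk), CD8 T cell markers to 7.18 to 7.79 and 11.4 to 13.9 TPM (1 of 2, Cd8b1), and NK cell markers to 1.24 to 2.56 and 2.60 to 3.69 TPM (0 of 3). Markers of macrophages and monocytes summed to 3.76 to 6.05 and 4.03 to 7.57 TPM (1 of 3, Itgam), of granulocytes to 0.974 to 1.52 and 2.01 to 3.18 TPM (0 of 2), and of erythroid cells and platelets to 4.84 to 13.5 and 5.99 to 15.97 TPM (0 of 4). For 6 of these 8 marker lists, the summed level was higher in every Wtap KO library than in any WT library. The exceptions were the lists of macrophages and of erythroid cells. The gap was narrow for B cells (at most 4.03 TPM in WT, at least 4.05 TPM in Wtap KO) and NK cells (2.56 and 2.60 TPM). Among single genes tested, 17.2% had all Wtap KO libraries above all WT libraries. The part of other cells in the levels of Oas2, Oas1a and Adar was not tested.

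Genes whose level followed the 10 most closely were sought among 8333 others with a mean of at least 10 CPM. The profile was the mean over the 9 of the 10 genes called or with a mean of at least 1 CPM, all but Oasl1, of centred log2(CPM + 0.5) in the 6 libraries. Xaf1, itself known as interferon-inducible, was closest (Pearson's r = 0.997), at 42.4, 38.0 and 31.7 CPM in WT and 61.7, 60.4 and 45.8 CPM in Wtap KO, which repeats the low values of libraries WT 3 and Wtap KO 3. Pck2 (r = 0.995), Gsto1 (r = 0.993), 2210016F16Rik (r = 0.992) and Slc7a5 (r = 0.992) came next. The profile's own members correlated with it less evenly, from 0.980 for Oas1a to 0.664 for Ifih1 and 0.670 for Adar. The 6 points share library and genotype and the genes were picked from all 8333, so these correlations are a description only.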

How the data were processed

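RNA was measured in 3 WT and 3 Wtap KO libraries, grouped by sample title. The submitters' processing notes name kallisto 0.44.0, DESeq2 and the build GRCm38 (mm10). The authors deposited estimated counts and TPM values per transcript. Not given in the sources used here are the index annotation, the strand setting and what DESeq2 was used for. Of 142647 transcripts, 99.15% matched GENCODE M21 by identifier, and the 1218 others were left out of the main test. Estimated counts were summed per gene, rounded and compared by the quasi-likelihood test of edgeR 4.0.16 in R 4.3.3 (TMM, filterByExpr, robust). Genotype was the single term, and Benjamini-Hochberg adjustment ran over all genes at a threshold of 0.05. CPM values are scaled by TMM library sizes. A standard error (SE) is that of the fitted log2 fold change, taken from the quasi-likelihood F. Transcript abundance was tested in the same way and transcript shares with limma 3.58.1 on log-ratios with a pseudocount of 1, for transcripts with a mean of at least 10 counts. The fits were also run on simulated counts with the same fixed spread for all genes. Such counts do not show how calls near the threshold behave in these libraries. The genes and gene lists were chosen with earlier results of these data known. Named genes were the 10, up to 4 called genes of largest change per list, a fixed set of pathway genes, the 5 genes most alike in profile, and transcripts of at least 1 TPM in a group. Alternatives were other scalings, filters, DESeq2 1.42.0, limma on TPM, offsets on gene length and GC content, a replicate block and leaving out each library. Promoter sequences are RefSeq's (GRCm38.p6). Some pathway genes are not reported here.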

Additional observations from a re-analysis of the deposited data

How the results depend on the processing

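Of 178 refits of single genes among the 10, 156 kept the direction and side of the threshold, 16 lost the call, 4 gained it and 2 turned the direction: Ifih1 went from 0.09 to -0.10 without WT 3 and to -0.01 without Wtap KO 2 (range -0.10 to 0.37 over fits without a library). The count of the 10 called (3) was 1 with an offset on gene length and 1 to 4 with a library left out. This count was 2 with length-scaled counts, with unmatched transcripts kept and with an offset on GC content. It was also 2 in both limma fits on TPM, which tested 8 of the 10. Over all genes, 1626 calls became 2496 with DESeq2, 942 with limma on log2(TPM + 1), 901 with limma on log2(TPM + 0.1) and 361 to 2282 with a library left out. The sample titles number the libraries and name no pairs, so whether the replicate numbers pair the samples is not known. Same-numbered libraries correlated at -0.095, 0.053 and 0.130 in their deviations from the group means over all genes tested. These values cannot settle whether the samples are paired. With a replicate block the SE was smaller for Oas1a (0.25 against 0.45) and larger for Adar (0.17 against 0.15). With the replicate block 1061 genes were called, and 1001 with the replicate block and the length offset together. Among the 10 genes that block called Oasl2 (adjusted p = 0.0281) and not Adar (adjusted p = 0.0848), and the count remained 3. Transcript calls (338) became 213 with a mean of at least 10 counts, 2936 with DESeq2, 0 with the replicate block and 0 to 17 with a library left out. For the transcripts of the 10 genes, DESeq2 called 3 and edgeR 0. Calls of transcript shares (124) became 0 with the replicate block and 97 to 155 with a library left out. The difference in the share of Adar counts at the p150 codon (-0.634 percentage points) was -2.13 as a share of TPM (89.3% in WT, 87.2% in Wtap KO, exact permutation p = 0.7), 1.27 without WT 2, and ranged from -1.65 to 1.27 with a library left out. The cause of these shifts was not tested, beyond the fewer samples in the fits that leave out a library. Depth limits Oas2, Oas1a and Oasl1 most, which had under 50 estimated counts in every WT library.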
